A study of Mus musculus with 44 samples.

Results

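The IL4 response of wild-type macrophages was measured by RNA-seq in BMDMs, cells that mouse marrow precursors become when cultured with the growth factor M-CSF. The comparison comprised 4 of the 44 libraries of the study, 2 of cells given vehicle (WT_Veh) and 2 of cells given IL4 (WT_IL4), each collected after 6 h. The 4 libraries were chosen by their labels alone, without reference to any measured value, and all 24940 genes of the table entered the analysis. The study as a whole asked how the corepressor NCoR, encoded by Ncor1, shapes macrophage responses to several ligands, and the table that held these 4 libraries held 24 in all. "WT" here is the genotype NCoR flox/flox without Cre, so the cells called wild type carried floxed Ncor1 alleles in WT_Veh and WT_IL4 alike. Their counterparts, called NKO, were NCoR flox/flox with LysMCre, in which Cre is driven by the myeloid lysozyme gene. By the study's methods the marrow came from adult C57BL/6 mice, and vehicle and IL4 cells alike were kept in low serum before the ligand was added. Comparison groups from the same table were WT cells given IFNβ (WT_IFNb) or poly I:C (WT_PolyIC), the latter a synthetic double-stranded RNA sensed by TLR3, and NKO cells given vehicle (NKO_Veh) or IL4 (NKO_IL4), all for 6 h. These groups carried 1 date stamp, and nothing in the labels says whether the 2 libraries of a group came from separate mice or cultures. The p-values thus rest only on the spread between libraries, pooled over the 24 of the table, which may be technical.

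IL4 is a cytokine of T helper 2 cells, mast cells, basophils and eosinophils. In macrophages it binds IL4Rα paired with the common γ chain (Il2rg) or with IL13Rα1, and the receptor-bound kinases JAK1, JAK3 and TYK2 then phosphorylate STAT6, which enters the nucleus and binds DNA as a dimer at palindromes of TTC and GAA. Macrophages so treated are called alternatively activated, and their textbook markers are arginase 1, the resistin-like protein RELMα (Retnla), the chitinase-like protein Ym1 (Chil3) and the mannose receptor CD206 (Mrc1). The state is known for its part in defence against worms, in wound repair and in the macrophages of adipose tissue.

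Gene counts per library were 10.7 to 12.3 M in the 4 libraries, and 84.0 to 85.4% of mapped reads fell in genes. Values are given as CPM (counts per 1 M counts, after scaling between libraries), and the floor of 3 counts corresponded to 0.244 to 0.281 CPM before scaling. The 12 macrophage identity genes tested summed to 18531.5 and 19260 CPM in WT_Veh and 16605 and 16431.5 CPM in WT_IL4. Among them, Lyz2 (lysozyme) was at 9288 and 9129 CPM in WT_Veh and 6252 and 6160.3 CPM in WT_IL4. Adgre1 (F4/80) was at 1792 to 2087 CPM, whereas Aif1 was at only 20.4 and 31.9 CPM in WT_Veh and 12.7 and 15.8 CPM in WT_IL4. Markers of other cell types (26 of 34 tested) summed to 112 and 106 CPM in WT_Veh and 103 and 125 CPM in WT_IL4, most of it Col1a1 and Col1a2, and Ms4a1, Ly6g, Elane and Siglech had no count in any of the 4 libraries. Ncor1 was at 162 and 169 CPM in WT_Veh and 156 and 181 CPM in WT_IL4, against 52.9 to 57.6 CPM in the 4 NKO libraries. WT_Veh stood apart in 1 respect: its 2 libraries differed by 5.95 in chi-square per degree of freedom, against 2.32 in WT_IL4 and 1.76 to 1.91 in NKO_Veh, NKO_IL4, WT_IFNb and WT_PolyIC. All 29 interferon-stimulated genes tested were higher in WT_Veh replicate 2 than in replicate 1, and results that rest on that library are given below with and without it.

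Letters of the promoters are shown first, for those of the 20 largest rises that were picked because their window held a palindrome before the start. STAT6 is known to bind the palindrome TTCNNNNGAA. TTCNNNGAA, with 1 base less between TTC and GAA, is the form bound by several other STAT proteins and, less well, by STAT6. Stretches end before the transcription start, are written on the strand of the gene from 5′ to 3′, come from RefSeq promoter windows of GRCm38.p6 (the mm10 assembly), and carry the palindrome in capitals.
Retnla, chr16:48842419-48842518, plus strand: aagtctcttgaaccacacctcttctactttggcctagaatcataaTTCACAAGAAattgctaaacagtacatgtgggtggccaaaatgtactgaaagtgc
Pdcd1lg2, chr19:29410792-29410891, plus strand: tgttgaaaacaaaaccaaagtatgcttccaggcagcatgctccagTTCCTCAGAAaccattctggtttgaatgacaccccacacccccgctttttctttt
Tmem26, chr10:68723660-68723745, plus strand: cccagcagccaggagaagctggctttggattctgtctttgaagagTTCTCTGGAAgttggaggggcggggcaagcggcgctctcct
Apol7c, chr15:77533333-77533432, minus strand: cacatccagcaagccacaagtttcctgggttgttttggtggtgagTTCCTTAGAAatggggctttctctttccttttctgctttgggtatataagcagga
Chil3, chr3:106167683-106167781, minus strand: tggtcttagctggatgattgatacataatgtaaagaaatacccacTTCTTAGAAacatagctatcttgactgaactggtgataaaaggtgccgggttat
Il31ra, chr13:112580800-112580898, minus strand: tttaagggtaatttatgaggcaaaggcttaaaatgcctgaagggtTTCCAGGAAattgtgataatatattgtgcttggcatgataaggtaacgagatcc
Rasgrp1, chr2:117342944-117343042, minus strand: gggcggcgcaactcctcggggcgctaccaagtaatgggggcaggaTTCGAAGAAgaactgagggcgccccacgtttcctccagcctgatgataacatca
The palindromes of Retnla, Pdcd1lg2, Tmem26 and Apol7c have 4 bases between TTC and GAA and begin 145, 82, 41 and 72 bases before the start, and those of Chil3, Il31ra and Rasgrp1 have 3 and begin 172, 191 and 120 bases before it. Tmem26 held another palindrome of 4 such bases, 227 bases before its start. These starts are those of RefSeq. For Retnla that start lies 57 bases from the start of the counted transcript, whereas for the other genes shown the starts coincide.

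Over all genes tested, TTCNNNNGAA was found in 562 of 10198 promoter windows (5.51%), counted from 250 bases before the start to 50 after it. Among the genes called higher with IL4 it was found in 60 of 652 windows (9.20%), and among those called lower in 34 of 625 (5.44%). TTCNNNGAA was found in 699 of the 10198 windows (6.85%), in 38 of 652 of genes called higher (5.83%) and in 40 of 625 of genes called lower (6.40%). Both strings read the same on either strand, and the 2 could overlap each other in a window. Of the 20 genes with the largest rises, 15 had a window, and 4 of these held TTCNNNNGAA and 4 held TTCNNNGAA, whereas neither was found in the 15 windows of the 20 largest falls. Cish held TTCNNNGAA only at and after the start and is not shown. Arg1, Scn3a, Aifm3 and Socs1, among others of the 20, held neither or had no window. These matches describe the letters only and say nothing of binding.

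IL4 changed the level of 1755 of 13407 genes tested. A gene was called when its fold change exceeded 1.5 and its adjusted p, from edgeR's quasi-likelihood F-test, was below 0.05. By that rule 889 genes were higher in WT_IL4 (6.63% of those tested) and 866 were lower (6.46%). Counts of calls in the gene lists below are to be read beside these shares. The rises reached farther than the falls: 196 of the genes called higher and 57 of those called lower exceeded 4-fold, and 65 against 11 exceeded 16-fold. The median fold of the called genes was 2.14 for rises and 1.89 for falls. The rise or fall of 635 and 508 of these genes was still called whichever of the 4 libraries was left out. Over all genes tested the median log2 fold change was -0.01. In bulk samples fewer cells of a type cannot be told apart from less RNA per cell.

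**Figure D1:**
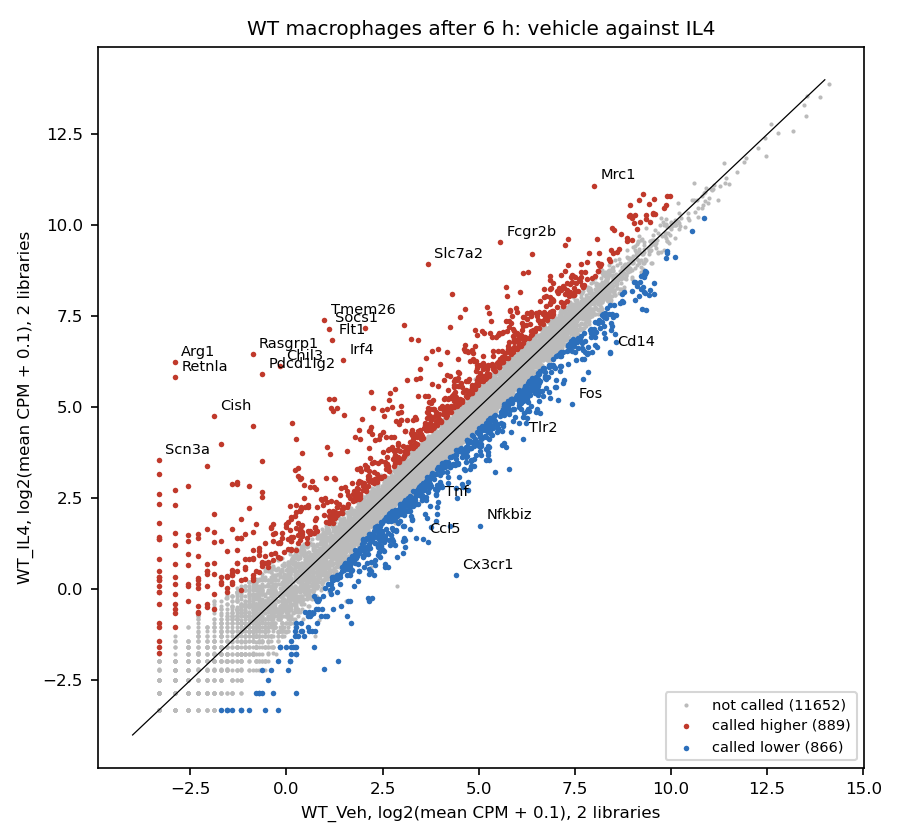
Mean level of each of the 13407 genes tested in WT_Veh (horizontal) and WT_IL4 (vertical), as log2(mean CPM + 0.1) of 2 libraries, with genes called higher in red, called lower in blue and the rest in grey. Rises such as Arg1 and Retnla start from the bottom of the vehicle range, whereas called falls lie closer to the diagonal, with Cx3cr1 and Nfkbiz farthest from it among the abundant genes.

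Arg1 and Retnla rose from almost no reads, whereas Mrc1 was already abundant with vehicle. Arg1, the enzyme that turns arginine into ornithine and urea (mm10, chromosome 10, 24915207 to 24927470, minus strand), was at 0.0688 and 0 CPM in WT_Veh and at 83.8 and 67.7 CPM in WT_IL4. The vehicle value is a single read in 2 libraries, so that the ratio of 2206 has a 95% exact interval, for counting error alone, of 396 to 87187. Retnla, whose product RELMα is secreted in type 2 immunity, went from 0.0688 and 0 CPM to 55.6 and 57.5 CPM, a ratio of 1649 with an interval of 295 to 65167. Both WT_IL4 libraries were far above both WT_Veh libraries for each gene, with adjusted p of 1.35e-28 and 1.23e-34.

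Chil3 encodes the lectin Ym1 and rose from 0.894 and 0.684 CPM to 66.1 and 74.3 CPM, 87.9-fold. Mrc1, the mannose receptor, was already expressed at 249 and 265 CPM with vehicle and reached 2139 and 2219 CPM with IL4, 8.49-fold (log2 fold change 3.09 ± 0.06 SE, adjusted p = 6.38e-45). The groups did not overlap for either gene, which alone says little with 2 libraries against 2, where an exact permutation p cannot be below 0.333. Per kilobase of transcript, Mrc1 stood at 405 and 420 RPKM (CPM per kilobase) in WT_IL4, Retnla at 93.9 and 97.1, Arg1 at 57.1 and 46.2 and Chil3 at 43.3 and 48.7. On that scale of levels, Mrc1 moved from rank 1141 to rank 83 of the genes tested, Retnla from 12896 to 501 and Arg1 from 13095 to 1117.

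Of the 22 alternative activation markers tested, 18 rose, 1 fell and 3 were not called, and the median log2 fold change was 3.29. The counts were 18 or 19 higher and 1 lower whichever library was left out. Besides those above, the list held Slc7a2, a transporter of cationic amino acids such as arginine, which rose from 13.1 and 12.4 CPM to 485 and 490.5 CPM (38.3-fold), and Pdcd1lg2, the PD-1 ligand PD-L2, which rose from 0.550 and 0.547 CPM to 58.9 and 61.1 CPM (107-fold). Flt1, VEGF receptor 1, rose from 1.44 and 2.94 CPM to 119.9 and 109 CPM (51.9-fold), and its log2 fold change of 5.70 became 6.30 without WT_Veh replicate 2. Of the C-type lectins that bind galactose and its derivatives, Mgl2 went from 0 and 0.137 CPM to 7.55 and 6.46 CPM, a ratio of 102 with a counting interval of 27.8 to 849, and its neighbour Clec10a from 2.13 and 2.05 to 13.1 and 13.0 CPM (6.20-fold). Cdh1 (E-cadherin), which macrophages use in fusion, stayed low, at 0.138 and 0.0684 CPM with vehicle and 3.30 and 1.84 CPM with IL4. Ptgs1 (cyclooxygenase 1) rose from 20 and 25.4 to 182 and 177 CPM (7.89-fold), and Cd83, of the immunoglobulin family, 1.64-fold. Il1rn, the IL-1 receptor antagonist, was the member that fell, from 24.5 and 28.4 to 15.9 and 13.7 CPM. Chil4 and Alox15 did not reach the minimum count for testing, and Ear11 was not found under that symbol.

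The rule of the 20 largest rises among genes of at least 5 CPM took in several genes outside that list. Scn3a, a neuronal sodium channel subunit, Il31ra, a receptor chain for IL-31, Aifm3, of the apoptosis-inducing factor family, and Msx3, a homeobox gene, had no read in either vehicle library. With IL4 they were at 11.5 and 11.8, 8.73 and 9.07, 5.74 and 6.46, and 5.43 and 4.61 CPM. Against a floor of 3 counts over the vehicle group, these were at least 113-fold, 86.5-fold, 59.3-fold and 48.7-fold higher. Tmem26, a membrane protein known from beige fat cells, rose from 1.51 and 2.26 CPM to 167 and 168 CPM (88.5-fold, log2 fold change 6.47 ± 0.12 SE). Rasgrp1, an exchange factor that activates Ras, went from 0.0688 and 0.821 CPM to 83.4 and 91.9 CPM. It had 1 and 12 vehicle reads, and its log2 fold change of 7.59 became 6.72 without WT_Veh replicate 1 and 10.11 without WT_Veh replicate 2.

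Further down the same ranking stood Scimp, an adaptor at the immune synapse, Tarm1, an activating receptor of myeloid cells, Apol7c, an apolipoprotein L, and Il4i1, a secreted oxidase of aromatic amino acids whose name records its induction by IL4. Il4i1 rose from 3.71 and 4.31 CPM to 156 and 133 CPM (35.9-fold). Its gene model overlaps those of Gm21948 and Tbc1d17, so that reads of the overlap cannot be assigned to 1 gene with certainty. Tarm1 rose from 0 and 0.411 CPM to 16.2 and 15.6 CPM. Its 6 vehicle reads were all in replicate 2, and the log2 fold change of 6.20 became 5.24 without WT_Veh replicate 1 and 10.58 without WT_Veh replicate 2. Scimp and Apol7c rested on 1 and 4 vehicle reads, with ratios of 192 (interval 33.9 to 7608) and 75.1 (interval 29.0 to 278).

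**Figure D2:**
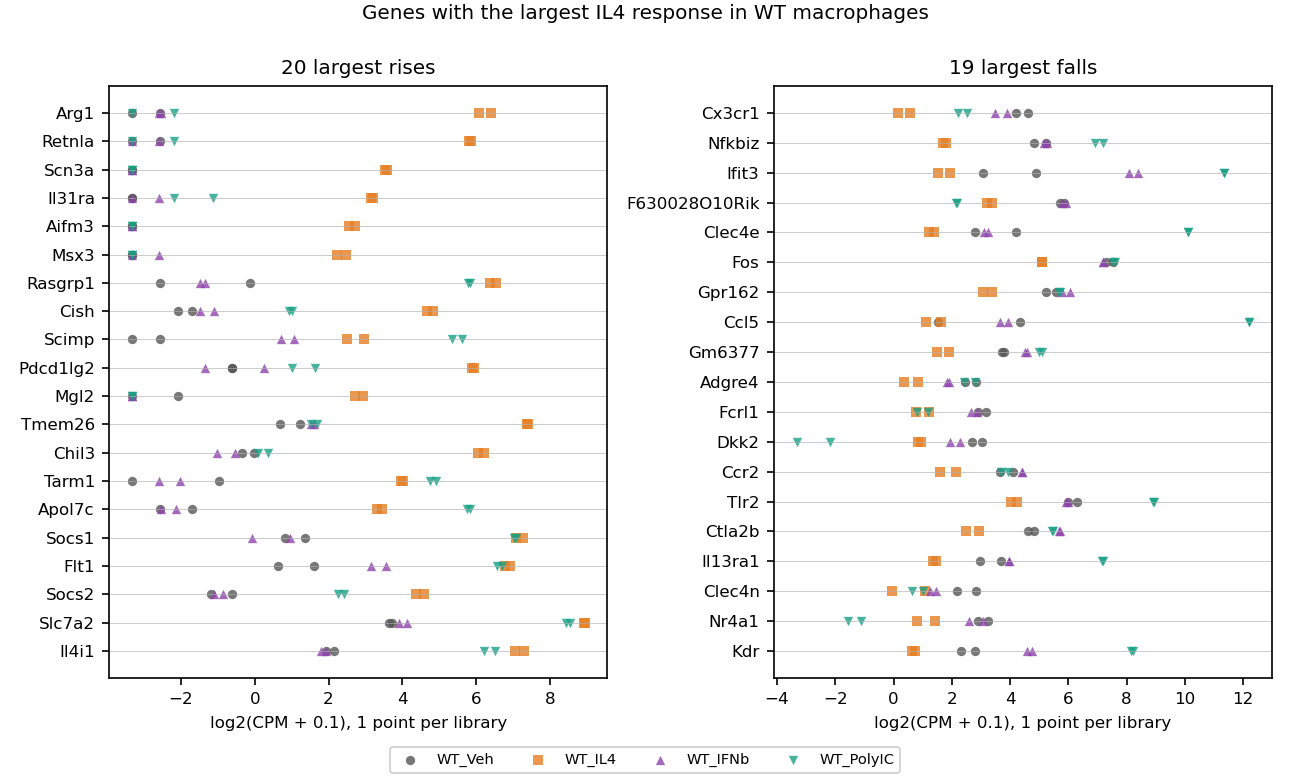
Level of the 20 genes with the largest rises (left) and the 19 with the largest falls (right) as log2(CPM + 0.1), 1 point per library, in WT_Veh, WT_IL4, WT_IFNb and WT_PolyIC. Orange WT_IL4 points lie right of all vehicle points on the left and, except for Ccl5, left of them on the right, where the 2 WT_Veh points of Ifit3, Clec4e and Ccl5 are widely separated.

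Of 17 genes of the receptor and of STAT6 signalling, 4 rose (Jak2, Socs1, Socs2 and Cish), 2 fell (Il13ra1 and Socs3) and 11 were not called, with a median log2 fold change of 0.14. The falls numbered 4 without WT_Veh replicate 1 and 1 with any other library left out. The receptor chain Il4ra was at 76.4 and 124 CPM with vehicle and 136 and 140.4 CPM with IL4 (log2 fold change 0.47 ± 0.14 SE, adjusted p = 0.0242, under the fold threshold). It was called higher only when WT_Veh replicate 2 was left out, at a log2 fold change of 0.85. Il2rg was at 89.6 and 130.3 CPM against 92.7 and 92.9 CPM, and Jak3 at 35.6 and 64.5 CPM against 39.6 and 38.4 CPM. In both, WT_Veh replicate 2 was the high library, and neither passed the test (adjusted p = 0.167 and 0.214). Jak3 was called lower without WT_Veh replicate 1, at -0.72. Jak1 (313 and 317 against 357 and 377 CPM) and Stat6 (295 and 298 against 234 and 239 CPM) changed by 0.22 and -0.33 on the log2 scale, below the fold threshold.

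Larger changes were seen among the inhibitors. Cish and Socs1 to Socs3 encode SH2 proteins that bind activated receptors or JAKs and damp signalling. Socs1 rose from 1.65 and 2.46 CPM to 153 and 134 CPM (69.2-fold, adjusted p = 2.75e-32). Socs2 rose from 0.344 and 0.547 to 23.7 and 20.7 CPM (48.7-fold), and Cish from 0.206 and 0.137 to 28.5 and 25.4 CPM, a ratio of 157 with a counting interval of 67.0 to 485 on 5 vehicle reads. Socs3 went the other way by the test, from 1.65 and 7.05 CPM to 1.49 and 1.23 CPM (adjusted p = 0.0442), but the call was lost with any library but WT_Veh replicate 1 left out, and leaving out WT_Veh replicate 2 brought the log2 fold change to -0.28. Jak2 rose 2.83-fold, from 42.2 and 47.8 to 123 and 132 CPM.

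Il13ra1, which pairs with IL4Rα in the second receptor type, was the only receptor chain of the pathway that was called lower. It fell from 7.70 and 12.9 CPM to 2.67 and 2.46 CPM (4.00-fold lower, adjusted p = 2.81e-07), and it was called whichever library was left out. Il13ra2, the decoy receptor, was not tested.

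Transcription factors of the response moved in both directions, with 11 of 32 tested higher and 4 lower (median log2 fold change 0.47). Irf4, which is known to direct alternative activation of macrophages, rose from 2.34 and 3.01 CPM to 79.7 and 78.2 CPM (29.4-fold). Egr2 rose from 56.7 and 48.0 to 311 and 323 CPM (6.06-fold), and the zinc finger factor Klf4 from 11.2 and 10.6 to 58.9 and 53.3 CPM (5.14-fold). Batf3, a partner of IRF4 in dendritic cells, rose 16.4-fold to 37.7 and 36.7 CPM. Nfil3, a bZIP repressor, rose 12.5-fold to 117 CPM in each library. Myc (4.23-fold), Fosl2 (5.79-fold), Bhlhe40 (5.09-fold) and the histone demethylase Kdm6b (2.53-fold) rose too, as did the lineage factor Cebpa (1.87-fold).

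Pparg, the lipid-sensing nuclear receptor that IL4 is known to induce, was at 89.2 and 81.3 CPM with vehicle and 132 and 118 CPM with IL4. By edgeR's test its adjusted p was 4.52e-11, but the 1.46-fold change was below the threshold, so that it was not called. It was called higher without WT_Veh replicate 1 and without WT_IL4 replicate 2. The factors that fell were Fos, Maf, Id3 and Bhlhe41. Fos, a partner in the AP-1 dimer, fell 5.04-fold from 158 and 186 to 34.4 and 33.8 CPM, whereas its relative Fosl2 rose. Maf fell 2.11-fold.

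Among the genes of arginine and polyamine metabolism, the largest rises in RNA were those of Arg1 and the transporter gene Slc7a2. Of 19 genes tested, 5 rose (Arg1, Slc7a2, Azin2, Sat1 and Srm), 3 fell (Ass1, Smox and Azin1) and 11 were not called, with a median of 0.24. Without WT_IL4 replicate 1 only 1 fell and without WT_IL4 replicate 2 there were 2. Azin2, which relieves ornithine decarboxylase of its antizyme, rose from 3.65 and 3.49 to 23 and 18.1 CPM (5.73-fold). Srm, spermidine synthase, rose by 1.54-fold and Sat1, which acetylates polyamines, by 1.63-fold. Ass1, which remakes arginine from citrulline, was low throughout, at 1.93 and 2.39 CPM against 1.10 and 1.08 CPM, its gene model overlaps Gm5424, and it was called only when WT_Veh replicate 1 was left out or none was.

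Of 23 genes of lipid uptake, storage and oxidation 2 rose and 3 fell (median -0.21), beside 6.63% and 6.46% over all genes. Ppargc1b, the PPARγ coactivator PGC1β, rose from 3.44 and 4.17 to 23.8 and 27.1 CPM (6.68-fold), and the cholesterol exporter Abcg1 from 592 and 581 to 1072 and 1122 CPM (1.87-fold). The related exporter Abca1 fell from 619.9 and 632 to 372 and 437 CPM (1.55-fold lower), and the fatty acid carriers Fabp5 and Fabp4 fell 1.79-fold and 1.52-fold. Abca1 lost its call without WT_IL4 replicate 1, and Fabp4 without WT_Veh replicate 1 and without WT_IL4 replicate 2. In cholesterol synthesis, 2 of 19 genes rose, Dhcr7 by 2.46-fold and Mvd by 1.53-fold, and 16 of the 19 had a log2 fold change below 0, as had 6945 of all 13407 genes. The median of the list was -0.19, but 0.086 without WT_Veh replicate 2.

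**Figure D3:**
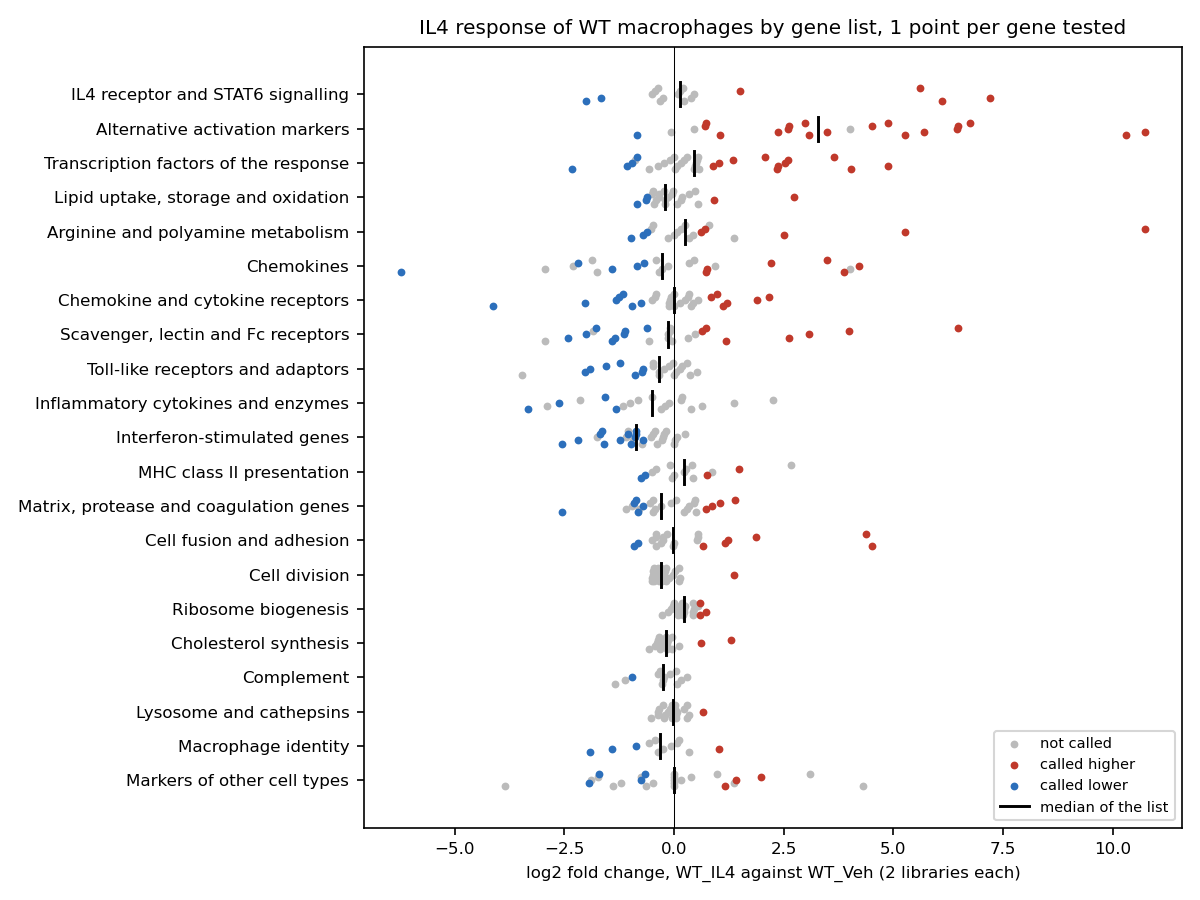
Log2 fold change of WT_IL4 against WT_Veh for every tested member of each of the 21 gene lists, 1 point per gene, in red where called higher, blue where called lower and grey where not called, with a bar at the median of the list. The alternative activation markers spread to the right, with a median of 3.29, whereas the Toll-like receptor, inflammatory and interferon-stimulated lists hold calls on the left only.

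Among 23 chemokines, 6 rose and 5 fell (median -0.27), beside 6.63% and 6.46% over all genes. The falls numbered 7 without WT_Veh replicate 1, 3 without WT_Veh replicate 2 or WT_IL4 replicate 1 and 2 without WT_IL4 replicate 2, and without WT_Veh replicate 2 there were 8 rises and the median was about 0. The rises were in 2 clusters of neighbouring genes on chromosome 11 and in Ccl24. Of the monocyte attractants, Ccl7 rose from 2.82 and 1.44 to 35.8 and 27.3 CPM (14.7-fold) and Ccl2 from 5.43 and 3.28 to 26 and 14.6 CPM (4.64-fold). Ccl12 beside them went from 0 and 0.0684 to 0.786 and 0.845 CPM, on 1 vehicle read. Ccl9 and Ccl6, which neighbour each other, rose 1.68-fold and 1.65-fold. Ccl24 (eotaxin-2), an attractant of eosinophils, rose from 0.275 and 0.137 to 2.99 and 1.84 CPM. The neutrophil attractants Cxcl1 and Cxcl2 were called lower at low levels, and Cxcl1 had no read with IL4 against 0.825 and 0.684 CPM with vehicle, at least 6.47-fold lower against the floor over the group. Cxcl14 fell 1.59-fold, and Cxcl16 fell from 216 and 293 to 146 and 138 CPM (1.80-fold). Ccl5 was at 2.75 and 20.3 CPM with vehicle and 2.04 and 3.00 CPM with IL4, so that its groups overlapped, and the call was kept only without WT_Veh replicate 1. Leaving out WT_Veh replicate 2 gave a log2 fold change of -0.12.

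Receptors for chemokines and cytokines split, with 6 of 29 tested higher and 7 lower and a median of 0. Cx3cr1, the fractalkine receptor of patrolling monocytes, showed the largest fall of the named genes of at least 5 CPM. It went from 18.4 and 24.2 CPM to 1.02 and 1.38 CPM, 17.5-fold lower (log2 fold change -4.13 ± 0.34 SE, adjusted p = 3.9e-08). Ccr2, the CCL2 receptor of inflammatory monocytes, fell from 12.4 and 17 to 2.91 and 4.30 CPM, 4.06-fold, so that receptor and ligand moved in opposite directions. Ccrl2 fell 2.40-fold, Cxcr4 2.25-fold, Tgfbr1 1.96-fold and Il17ra 1.68-fold. The rises were in Csf2rb (2.33-fold), the β chain shared by receptors of GM-CSF, IL-3 and IL-5, in Il6st (gp130, 2.18-fold), in Il27ra and Il1rap, and, at low levels, in Il1r1 and Il1rl1, the receptor of IL-33, which went from 2.20 and 0.889 to 7.31 and 6.53 CPM.

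Phagocytic and pattern-recognition receptors of the cell surface were likewise divided. Of 25 scavenger, lectin and Fc receptors tested, 7 rose and 8 fell. Fcgr2b, the inhibitory Fcγ receptor, rose from 47.1 and 46.7 to 743 CPM in both WT_IL4 libraries, 15.9-fold (log2 fold change 3.99 ± 0.06 SE, adjusted p = 3.93e-51). The activating receptor Fcgr3 rose 1.55-fold, from 732 and 681 to 1093 and 1098 CPM, whereas the high-affinity receptor Fcgr1 fell 2.67-fold, from 192 and 298 to 88.3 and 94.9 CPM. Per kilobase of transcript, Fcgr2b moved from 30.6 and 30.4 to 484 RPKM in each WT_IL4 library, and Fcgr3 stood at 812 and 816 RPKM in WT_IL4. The β-glucan receptor Clec7a (dectin-1) rose 1.66-fold and Clec5a 2.28-fold. Of the 6 members of the list in the dectin-2 cluster on chromosome 6, Clec4a1, Clec4a2 and Clec4a3 were not called and the other 3 fell, Clec4d from 383 and 376 to 112 and 108 CPM (3.45-fold), Clec4n from 4.47 and 7.05 to 0.865 and 2.00 CPM and Clec4e (Mincle) from 6.88 and 18.5 to 2.52 and 2.23 CPM. The log2 fold change of Clec4e was -2.41, and -1.53 without WT_Veh replicate 2, and that of Clec4n was -1.99, and -2.72 without WT_IL4 replicate 2. Clec12a (2.54-fold), Stab1 (2.20-fold), Msr1 (2.17-fold) and Cd5l (1.53-fold) fell too.

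None of the 22 Toll-like receptors and adaptors rose and 7 fell, with a median of -0.34. Between 6 and 8 of them were called lower whichever library was left out. Tlr2, which senses bacterial lipoproteins, fell from 62.9 and 79.0 to 18.6 and 16.4 CPM (4.05-fold, adjusted p = 2.6e-25). Cd14, the co-receptor for lipopolysaccharide, fell from 315 and 372 to 95.9 and 85.8 CPM (3.78-fold). Tlr13, a sensor of bacterial ribosomal RNA, fell from 585 and 627 to 205 and 211 CPM (2.92-fold), and Cd180, a Toll-like protein of B cells and macrophages, 2.36-fold. The kinases Irak2 and Irak3 fell 1.86-fold and 1.62-fold, and Tlr9 1.65-fold, the last not called without WT_Veh replicate 2.

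Of 19 inflammatory cytokines and enzymes tested, 4 fell and none rose. The median was -0.50, but 0.12 without WT_Veh replicate 2. Nfkbiz, the nuclear IκBζ needed for secondary inflammatory genes, fell 10.0-fold, from 28.0 and 37.7 to 3.15 and 3.38 CPM. Tnf fell from 14.5 and 16.3 to 5.50 and 4.84 CPM (2.97-fold) and Nlrp3, the inflammasome sensor, from 31.6 and 41.3 to 14.2 and 14.8 CPM (2.52-fold). Il1b, at 1.99 and 7.18 CPM against 0.944 and 0.538 CPM, was low in all 4 libraries, and its log2 fold change of -2.62 became -1.42 without WT_Veh replicate 2. The count of falls on this list ranged from 3 to 9 with each library left out, and the 9 came without WT_Veh replicate 1.

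Calls among the interferon-stimulated genes, which encode antiviral effectors, rested largely on WT_Veh replicate 2. Of 29 tested, 12 were called lower (Ifit1, Ifit2, Ifit3, Isg20, Mx2, Oas3, Oasl2, Rsad2, Ifi44, Ccl5, Rtp4 and Cmpk2) and none higher, with a median of -0.87. Their summed level was 1002 CPM in WT_Veh replicate 1, 1828 CPM in WT_Veh replicate 2 and 1054 and 1037 CPM in WT_IL4. Ifit2 was at 23.2 and 77.2 CPM in WT_Veh and 18.2 and 14 CPM in WT_IL4, Oasl2 at 123 and 221 CPM against 96.8 and 90.9 CPM, and Rsad2 at 29.0 and 50.6 CPM against 19.3 CPM in each WT_IL4 library. Without WT_Veh replicate 2, 1 gene was called lower (Ifit3, log2 fold change -1.35) and 2 higher (Stat2 and Irf7, at 0.74 and 0.76). Without WT_Veh replicate 1, 21 were called lower. In the fit of WT_Veh and WT_IL4 alone, 1 was called lower. The cause of the difference between the 2 vehicle libraries was not tested.

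**Figure D4:**
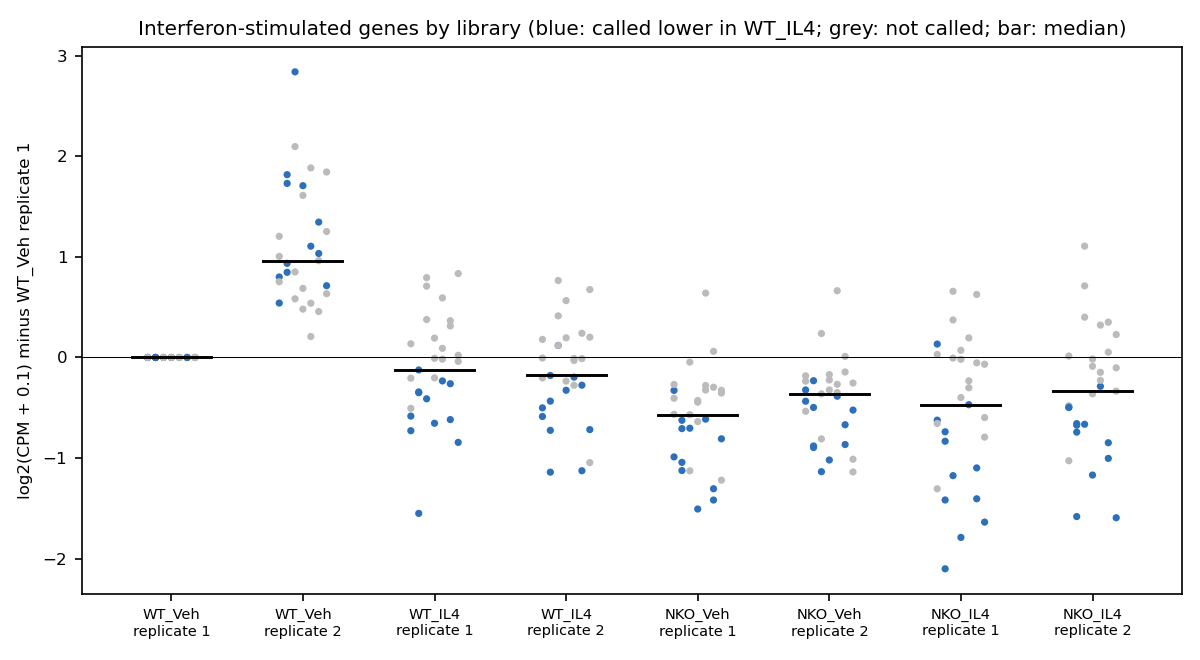
Level of each of the 29 interferon-stimulated genes tested, as log2(CPM + 0.1) minus the value in WT_Veh replicate 1, in 8 libraries of WT and NKO cells, with genes called lower in WT_IL4 in blue, the others in grey and the median as a bar. WT_Veh replicate 2 has the highest median, at 0.96, whereas the WT_IL4 libraries have medians of -0.12 and -0.18, close to WT_Veh replicate 1.

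Antigen presentation, complement and lysosomal genes gave 6 calls in all, beside shares of 6.63% called higher and 6.46% called lower over all genes tested. Of 15 genes of MHC class II presentation 2 rose, the costimulator Cd86 (2.79-fold, from 5.71 and 7.18 to 18.7 and 17.3 CPM) and the peptide-exchange subunit H2-DMa (1.70-fold), and 2 fell, H2-Aa (1.67-fold) and H2-Eb1 (1.59-fold). The falls of H2-Aa and H2-Eb1 were not called without WT_Veh replicate 2, when no member of the list was called lower. Of 13 complement genes only C5ar1, the C5a receptor, was called, 1.95-fold lower, although 3 were called lower without WT_Veh replicate 1 and 2 higher without WT_Veh replicate 2. Of 23 lysosomal and cathepsin genes only Atp6v0d2, a subunit of the proton pump, was called, 1.57-fold higher.

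Matrix, fusion and adhesion genes gave mixed calls, to be read beside 6.63% called higher and 6.46% called lower over all genes. Of 25 matrix, protease and coagulation genes, 4 rose and 5 fell, and 1 fell without WT_IL4 replicate 2. The coagulation factors F10 and F7 rose 2.62-fold and 1.84-fold and fibronectin (Fn1) 2.07-fold, and the collagenase Mmp13 1.66-fold, whereas the plasminogen activator Plau fell 1.83-fold. The other falls were in Mmp9, Timp3, Tgfbi and, at 1.24 CPM or less, tissue factor (F3). Of 21 genes of cell fusion and adhesion, 6 rose and 2 fell, and 4 fell without WT_Veh replicate 1 and 1 without WT_IL4 replicate 2. Itgb3, the β3 integrin, rose from 16.2 and 11.2 to 49.9 and 49.7 CPM (3.64-fold), Cd44, the hyaluronan receptor, from 555 and 509 to 1251 and 1245 CPM (2.35-fold) and Itgax (CD11c) 2.25-fold. The fusion protein genes Ocstamp and Dcstamp moved in opposite directions, Ocstamp from 0.275 and 0 to 4.09 and 2.00 CPM and Dcstamp from 11.6 and 8.55 to 5.66 and 5.15 CPM.

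Of 28 genes of cell division 1 was called, Cdkn1a, the cyclin-dependent kinase inhibitor p21, which rose from 232 and 237 to 627 and 589.7 CPM (2.60-fold). Of the same list, 23 had a log2 fold change below 0, with a median of -0.30, and 4 were called lower without WT_IL4 replicate 1 and 3 without WT_Veh replicate 2. Ribosome biogenesis had 3 of 22 genes called higher (Heatr1, Nolc1 and Rrp12, 1.52-fold to 1.65-fold) and 17 of 22 above 0. Over all 13407 genes tested, 6945 were below 0 and 6359 above it, with 6.63% called higher and 6.46% called lower. Of 12 genes of macrophage identity 1 rose and 3 fell (Cd14, Fcgr1 and Aif1), and 8 had a log2 fold change below 0, with a median of -0.31. Of the markers of other cell types, 3 rose and 4 fell. The rises were in Ttn, Zbtb46 and Pdgfra, at 1.00 to 2.12 CPM with IL4, and the falls in Kdr, Cd4, Ccr3 and Kit, the first from 4.88 and 6.84 to 1.57 and 1.46 CPM. Zbtb46 was called in none of the fits without 1 of the libraries, and Pdgfra and Kit in 1 and 2 of 4. The part of these markers in the other results was not tested.

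The remaining large falls were a mixed set. F630028O10Rik, a transcript that overlaps the microRNA gene Mir223, fell from 57.3 and 52.5 to 9.12 and 10.4 CPM (5.63-fold), and the orphan receptor Gpr162 from 37.1 and 48.1 to 8.34 and 10.3 CPM (4.57-fold). Ctla2b, Gm6377, Adgre4, Fcrl1, Dkk2 and the orphan nuclear receptor Nr4a1 fell 3.89-fold to 4.27-fold. Calls depended on the fit as well as on single libraries, and 22 named genes lost the call when WT_Veh and WT_IL4 were fitted alone. Of the 156 named genes that were called, 116 were called with each of the 4 libraries left out in turn. Besides those already given, calls were lost without WT_Veh replicate 2 for Srm, Fcgr3, Cd5l, Atp6v0d2, Aif1, Cxcl2, Tgfbi and Mmp9, without WT_Veh replicate 1 for Rrp12, Nolc1, Mvd, H2-DMa, Cxcl14, Timp3 and F3, without WT_IL4 replicate 1 for Azin1, Ccr3, Cxcl14 and Mmp13, and without WT_IL4 replicate 2 for Il1b, Nolc1, Cxcl2, Cxcl14, Tgfbi, Mmp9, Timp3 and F3. Of the 20 largest falls, 19 were called whichever of the 4 libraries was left out, and Ccl5 was not. All 20 of the largest rises were called in each of those fits. Fcgr2b and Fcgr3, Mgl2 and Clec10a, Csf2rb and its close copy, and Ctla2b and its relatives are similar in sequence, so that their counts are uncertain to the extent that reads could be split between them, and the gene models of Stat6, Jak1, Jak3, Stab1, Il1b, Ccl6, Cxcl16, Bhlhe40 and Ncor1 each overlap another.

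The largest changes were then set beside the levels under the other ligands. These comparisons share the WT_IL4 libraries with the one above and so are not independent of it. WT_IL4 had 1044 genes higher (7.79%) and 1310 lower (9.77%) than WT_IFNb, and 3367 higher (25.1%) and 2993 lower (22.3%) than WT_PolyIC. All 20 of the largest rises were higher in WT_IL4 than in WT_IFNb, where only Slc7a2 and Flt1 exceeded 8 CPM. Against WT_PolyIC 14 were higher, 3 were lower and 3 were not called. Arg1, Retnla, Scn3a, Aifm3, Msx3 and Mgl2 were at 0 to 0.120 CPM in both WT_PolyIC libraries. Socs1, by contrast, was at 134 and 131 CPM in WT_PolyIC, next to 153 and 134 CPM in WT_IL4, Flt1 at 103 and 95.1 CPM and Slc7a2 at 345 and 373 CPM. Scimp (40.8 and 48.6 CPM), Tarm1 (26.7 and 29.9 CPM) and Apol7c (53.3 and 56.9 CPM) were higher with poly I:C than with IL4. Of the 20 largest falls, all were lower in WT_IL4 than in WT_IFNb, and 14 were lower than in WT_PolyIC. Irf4 was at 0.357 and 0.361 CPM with poly I:C and Egr2 at 17 and 16.2 CPM, below their vehicle values, and Mrc1 at 90.7 and 92.2 CPM.

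The NKO libraries, which share no library with the WT comparison, gave a second measurement of the response in cells without intact Ncor1. There 899 genes were higher with IL4 (6.71%) and 726 were lower (5.42%). Of the 889 rises of WT cells, 671 were called higher in NKO, which is 75.5% of the WT list and 74.6% of the NKO list, and none was called lower. Of the 866 falls, 467 were called lower in NKO, 53.9% of the WT list and 64.3% of the NKO list, and 1 was called higher. The direction was shared by 871 of the 889 rises and 828 of the 866 falls. Over the genes called in WT, Pearson's r of the 2 log2 fold changes was 0.90, and over all genes tested 0.67, given as a description across genes, which are not independent replicates.

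All 20 of the largest rises were called higher in NKO. Arg1 reached 139 and 143 CPM there and Retnla 65.2 and 61.4 CPM, from at most 0.0718 CPM with vehicle. Of the 20 largest falls, 17 were called lower in NKO. The 3 that were not called there were Ccl5, Clec4e and Ifit3, for which WT_Veh replicate 2 exceeded replicate 1 by the largest ratios among the 20. Of the 29 interferon-stimulated genes, 1 was lower and 1 higher in NKO, with a median of 0.04. Of the Toll-like receptor list 6 were lower and 2 higher in NKO, with log2 fold changes of -2.14 for Tlr2 and -1.44 for Cd14.

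A test of the difference between the responses themselves, the interaction of genotype and IL4, called 47 genes with a higher change in NKO (0.351%) and 34 with a lower change (0.254%). Among the genes named here there were 6. Irf4 rose further in NKO, to 114 and 112 CPM (log2 fold change 6.06 against 4.88 in WT), as did Fcgr2b (4.62 against 3.99) and Ccl9 (1.55 against 0.75). Egr2 (1.63 against 2.60) and Itgb3 (0.94 against 1.86) rose by a smaller fold in NKO. Their vehicle levels were higher in NKO, 131 and 138 CPM for Egr2 and 36.5 and 35.2 CPM for Itgb3. The vehicle level of Ccl9 was also higher in NKO, at 602 and 562 CPM against 275 and 307 CPM in WT. The part of vehicle levels in these differences was not tested. Fos fell less in NKO (-1.31 against -2.33), from a vehicle level of 98.5 and 95.4 CPM. The count of genes with a higher change in NKO was 205 without WT_Veh replicate 1 and 29 without WT_Veh replicate 2.

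**Figure D5:**
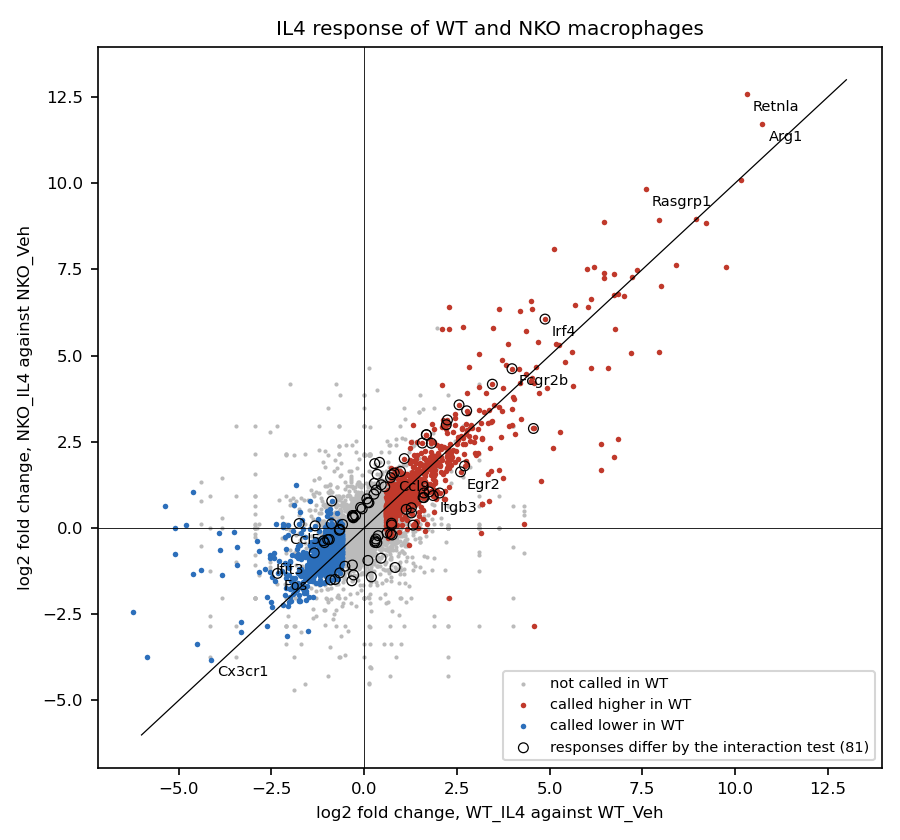
Log2 fold change of IL4 against vehicle in WT (horizontal) and in NKO (vertical) for each of the 13407 genes tested, with genes called higher in WT in red, called lower in blue and others in grey, and circles on the 81 genes whose responses differed by the interaction test. Most called genes lie near the diagonal, with Arg1 and Retnla at the upper right and Cx3cr1 at the lower left, and fitted values of genes with few or no vehicle reads depend on the prior count.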

How the data were processed

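RNA-seq counts were used as deposited: per the file headers, whole-number counts of reads in exons of RefSeq genes, 1 transcript per gene, made by the authors with HOMER after STAR alignment to mm10 (the submitters' processing notes name these tools, with DESeq2), without normalization. The headers do not name a strand setting, although the methods mention strand-specific reads. Replicates were not pooled. The other 3 tables of the series were not used here.

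The 24 libraries (12 groups of 2) were fitted together in edgeR 4.0.16 (R 4.3.3) with TMM scaling, filterByExpr (13407 of 24940 genes kept) and a robust quasi-likelihood F-test (2-sided). Its p-values were adjusted over all genes tested by Benjamini and Hochberg's method. Of the 24 libraries, those given the ligands KLA or RANKL carried other date stamps, and those given RANKL were collected after 12 h. The filter, the scaling and the shared spread thus drew partly on libraries of other dates and times. The shared spread may be too small for WT_Veh, whose chi-square per degree of freedom was 5.95, against 2.32 in WT_IL4. Where it is, p-values that rest on WT_Veh are too small. The common biological coefficient of variation was 0.0421. A call needed an adjusted p under 0.05 and a fold change over 1.5. SEs are those implied by the F statistic. An exact permutation test of 2 against 2 cannot give a p below 0.333, so that the tests lean on dispersion shared across genes. Depth was 10.7 to 12.3 M gene counts per library. Intervals and the floor of 3 counts cover counting error only, at 95% (exact binomial). Of the genes listed, 1346 are under 250 bp, a class omitted in the study but retained here.

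The 21 gene lists (447 genes, 432 tested) and the genes to be named (the 20 largest rises and 20 largest falls among called genes with a group mean of at least 5 CPM, the called list members and the genes of the pathway) were chosen with earlier results of these data known, and lists are described by counts and medians without a test. Other genes, such as Stat2, Irf7, Col1a1 and Lyz2, were named after their values were seen. Promoter windows came from RefSeq (GRCm38.p6) for the start nearest to that of the counted transcript, within 1000 bp, for 10198 genes. In simulated data for WT_IL4 against WT_Veh on 13307 genes, 98 of 100 genes changed 2-fold and 100 of 100 changed 4-fold were recovered, and 3 of 13107 unchanged genes were called. The counts were drawn gene by gene with the spread estimated over all 24 libraries, and the changed genes had at least 5 CPM with vehicle. The shared shift of genes in WT_Veh replicate 2 was not simulated, so the 3 calls give no error rate for the real comparison. Alternatives were DESeq2's size factors, DESeq2 1.42.0, no filter, a filter at a mean of 5 CPM, genes under 250 bp left out, only the compared groups, the replicate number as a block, no fold threshold, and each library left out. Figures were drawn with matplotlib 3.10.9. A few genes are counted in the lists but not reported here by name.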

Additional observations from a re-analysis of the deposited data

Results flagged for a closer look

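The 6 genes named above whose IL4 response differed between NKO and WT cells by edgeR's interaction test were Fos, with a difference of NKO minus WT of 1.02 on the log2 scale (adjusted p = 1.49e-10), Ccl9 (0.80, adjusted p = 2.4e-10), Fcgr2b (0.63, adjusted p = 3.26e-06), Itgb3 (-0.92, adjusted p = 5.71e-05), Egr2 (-0.97, adjusted p = 0.00169) and Irf4 (1.18, adjusted p = 0.00326). Each kept the same direction of response in both genotypes.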

How the results depend on the processing

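The numbers of genes called higher and lower in WT_IL4 against WT_Veh stayed within 1.5 times of 889 and 866 under DESeq2's size factors (904 and 843), DESeq2 (808 and 745), no filter (889 and 873), a mean of 5 CPM (623 and 627), without genes under 250 bp (876 and 859), in the compared groups alone (851 and 735) and with each library left out (828 to 889 and 781 to 869). Without the fold threshold the counts were 2071 and 2188, and for the other comparisons 2185 and 2057 (NKO_IL4 against NKO_Veh), 288 and 195 (the interaction), and 2297 and 2700 (WT_IL4 against WT_IFNb). The interaction gave 18 genes with a lower change under DESeq2 in place of 34, and with each library left out 29 to 205 with a higher change and 26 to 74 with a lower change, both upper ends without WT_Veh replicate 1. Deviations of same-numbered libraries from their group means correlated between -0.0246 and 0.0276 over all genes tested, and the replicate block gave 885 and 867 calls. Because these deviations also hold counting error, the correlations cannot tell whether same-numbered libraries came from the same mouse or culture. Of 1925 refitted values of the 163 named genes, 104 lost the call, 8 gained it and 4 changed sign. The sign changes were in Il2rg (0.050 without WT_Veh replicate 2, range with each library left out -0.49 to 0.050), Jak3 (0.13 without WT_Veh replicate 2, range -0.72 to 0.13, the lower end called) and Ncor1 (-0.085 without WT_IL4 replicate 2 and -0.0039 without WT_Veh replicate 1, range -0.085 to 0.13). The cause was not tested. In the compared groups alone 22 of the named genes lost the call, under DESeq2 5, with no filter 3 and with the replicate block 1. Among the largest changes, Aifm3, Ifit3 and Clec4e each lost the call in 1 of the fits that kept every library. With 2 libraries per group, changes near 1.5-fold and genes of a few reads are the least certain.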

Other observations

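Genes that responded to IL4 often had a responding neighbour. For 193 of the 889 genes called higher (21.7%) the nearest tested gene that did not overlap them was also called higher, against 5.86% over all 13407 genes, and for 133 of the 866 called lower (15.4%) it was also called lower, against 5.83%. Several runs of adjacent tested genes, singled out after their values were seen, moved as a block. On chromosome 19 the 6 genes Jak2, Insl6, Plgrkt, Cd274, Pdcd1lg2 and Ric1 were called higher, and Cd274 and Pdcd1lg2 encode the 2 ligands of PD-1. On chromosome 1 the 4 genes Il1r1, Il1rl2, Il1rl1 and Il18rap of the IL-1 receptor family were higher. The lectin genes Clec4n, Clec4d and Clec4e on chromosome 6 were lower. Runs of near-identical genes, such as the Pira and Serpina3 families, may share reads, and pairs with identical counts in all 4 libraries (Gm4070 and Gvin1, for example) cannot be told apart. The shares of responding neighbours given above include such genes.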
